A study of Danio rerio with 12 samples.

Results

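The SoxF genes sox7, sox17 and sox18 encode the F group of SRY-related HMG-box transcription factors. They were chosen by gene symbol and make up 3 of the 31172 gene rows measured at each stage. In zebrafish embryos homozygous for a knock-in at etv2, sox7 and sox18 transcripts fell to 10.03% and 18.4% of the heterozygous level at the 15-somite stage. At 24 hpf (hours post fertilization) they stood at 48.5% and 49.4%, differences that did not pass the test. sox17 was read at most 10 times in any library, too few for the test used on the other rows, and its groups overlapped at both stages.

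SoxF proteins bind DNA through the HMG box, bending it, and activate transcription through a C-terminal domain. sox7 and sox18 are expressed in endothelial cells and their precursors in zebrafish, where the proteins overlap in function and loss of both disturbs the separation of arteries and veins. sox17 is best known in zebrafish as a gene of the endoderm, acting downstream of the related factor sox32, while in mouse Sox17 also acts in arterial endothelium. etv2 encodes an ETS-family transcription factor that starts the development of endothelium and of some blood cells.

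RNA was sequenced from whole embryos in 12 libraries, 3 heterozygous and 3 homozygous at each of 2 stages. All carried the allele etv2 Gt(2A-Gal4)ci32, in 1 copy in heterozygotes and in both copies in homozygotes, and came from incrosses of carriers that also bore UAS:GFP, a reporter that Gal4 switches on. Each library held a pool of 15 to 20 embryos, assigned to a genotype by the pattern of GFP and then frozen. Embryos of the 15-somite stage were raised at 24 °C and those of 24 hpf at 28 °C, so stage and temperature cannot be told apart. The heterozygotes served as the comparison group, and no embryos without the allele were analysed here. Since whole embryos were lysed, fewer SoxF-expressing cells and less SoxF RNA per cell cannot be told apart in any value that follows.

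Values are log2 normalized expression relative to each gene's own median over the 6 libraries of its stage, so they hold no absolute level, and levels were not compared between genes or between stages. Approximate normalized units could be recovered for rows with very few reads, and are given for sox17 and its neighbour sox32 to show how few. The depth of the libraries is unknown. The worth of 1 read, recovered from steps between low values, gave relative depths between 0.905 and 1.13 in the younger embryos and between 0.961 and 1.06 in the older ones. Tests covered the rows classed at a median of at least 16 normalized units. There were 18861 of them in 15-somite embryos and 19382 in the older ones. The class was inferred from the stored numbers and can be wrong for some rows. Each difference is the homozygous mean minus the heterozygous mean in log2 units, given with its standard error (SE), tested two-sided by limma with Benjamini-Hochberg adjustment over all rows tested, and called at an adjusted p below 0.05. A name was shared by 2 homozygous columns of the 15-somite stage. Their genotype is known but not their replicate number, and they are called hom a and hom b beside hom 2. The targeted gene checked the genotype labels: at the 15-somite stage etv2 fell to 14.1% of the heterozygous level (log2 difference -2.83, SE 0.10, adjusted p = 0.000639), and the 24 hpf level was 11.3% (-3.15, SE 0.24, adjusted p = 0.00583). Every homozygous library lay below every heterozygous one at both stages, and the call at 24 hpf was lost without het 1 (adjusted p = 0.0633). The tables do not say which part of etv2 the reads covered.

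The first question was how the SoxF genes responded at the 15-somite stage. Set against the geometric mean of the heterozygous libraries, sox7 (ENSDARG00000030125) had values of 96.1% in het 1, 98.6% in het 2 and 106% in het 3, against 10.1% in hom 2, 8.01% in hom a and 12.5% in hom b. The heterozygous libraries lay close together and the homozygous libraries far below them, with no overlap. sox7 fell by 3.32 on the log2 scale, which is 9.97-fold (SE 0.22 log2 units, adjusted p = 0.00148, n = 3 against 3). The mean log2 value was 1.53 ± 0.07 (SD, n = 3) in heterozygotes and -1.79 ± 0.32 (SD, n = 3) in homozygotes. This was the fall of rank 19 among the 18861 rows tested. An exact permutation test of sox7 alone gave p = 0.1, the smallest that 3 against 3 libraries allow.

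sox18 (ENSDARG00000058598) was more variable among heterozygotes. Its values there were 106% in het 1, 68.4% in het 2 and 137% in het 3 of their geometric mean, against 16.5% in hom 2, 21.3% in hom a and 17.7% in hom b. The homozygous libraries again all lay below the lowest heterozygous library, which was het 2. sox18 fell by 2.44 on the log2 scale, which is 5.44-fold (SE 0.28 log2 units, adjusted p = 0.0118, n = 3 against 3), the fall of rank 47. Both tested SoxF genes were thus called lower, in a comparison that called 3.34% of all rows lower and 0.679% higher, and in 15.5% of all rows the homozygous libraries lay wholly below the heterozygous ones. Each call held when any 1 of the 6 libraries was left out, with log2 differences of -3.47 to -3.16 for sox7 and -2.72 to -2.21 for sox18.

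**Figure D1:**
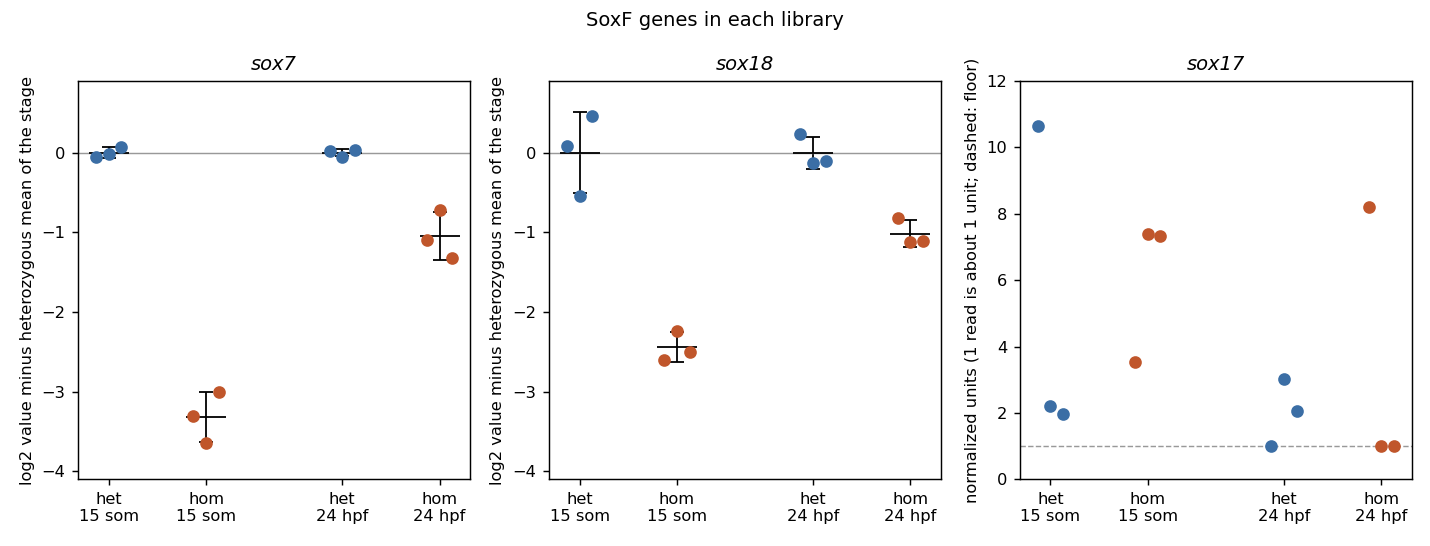
Each point is 1 library, blue for heterozygous (het) and orange for homozygous (hom). For sox7 and sox18 the vertical axis is the log2 value minus the heterozygous mean of the same stage, with group mean and SD as bars; homozygous libraries lie near -3.32 and -2.44 on average at the 15-somite stage and near -1.04 and -1.02 at 24 hpf. For sox17 the axis is normalized units on a linear scale, with a dashed line at the floor of 1 unit, and the genotypes overlap at both stages.

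At 24 hpf the homozygous values of both genes were closer to the heterozygous ones. For sox7 the heterozygous libraries stood at 101%, 96.8% and 102% of their geometric mean, and hom 1, hom 2 and hom 3 at 46.9%, 60.8% and 39.9%. The groups did not overlap, and the homozygous libraries were spread more widely than the heterozygous ones. The log2 difference was -1.04 (SE 0.15, 2.06-fold lower, unadjusted p = 0.000227, adjusted p = 0.0678 by limma) and did not pass the test. Without hom 2, the homozygous library with the most sox7, the difference of -1.21 passed with an adjusted p of 0.0151, and with all 12 libraries in 1 fit the adjusted p was 0.0497.

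For sox18 at 24 hpf, het 1, het 2 and het 3 stood at 117%, 91.3% and 93.3% of their geometric mean. The homozygous libraries stood at 56.5%, 46.1% and 46.3%. They lay below all heterozygous libraries and close to one another. The log2 difference was -1.02 (SE 0.18, 2.02-fold lower, unadjusted p = 0.000801, adjusted p = 0.158 by limma), which did not pass the test, with all libraries or without any 1 of them. At 24 hpf 0.248% of all rows were called lower and 0.031% higher, and in 6.51% of all rows the homozygous libraries lay wholly below the heterozygous ones, as they did for both of these genes. The falls of sox7 and sox18 ranked 161 and 168 among 19382 rows.

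Whether the effect of genotype changed with stage was asked of 18106 rows, those with a test at each stage, by an interaction term in limma. The sox7 difference was 2.27 log2 units nearer to 0 at 24 hpf (SE 0.27, adjusted p = 0.00437), which left 31.5% of the log2 fall seen at the 15-somite stage. This held without any 1 of the 12 libraries, with values of 2.11 to 2.43. The sox18 difference was 1.43 log2 units nearer to 0 (SE 0.33, adjusted p = 0.0404), with 41.6% of the log2 fall left. Of the 12 fits that left out 1 library, that call held only without het 2 of the 15-somite stage (1.7, adjusted p = 0.0233). It was lost when any other library was left out, with values of 1.20 to 1.54 and adjusted p up to 0.1002. It was also lost without the filter on level (adjusted p = 0.0521) and with 1 prior spread for all rows (adjusted p = 0.0589). Of all rows, 2.47% were called for a change in this direction and 0.862% in the other. etv2 itself gave -0.32 (SE 0.27, adjusted p = 0.575), a difference that did not pass the test.

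sox17 (ENSDARG00000041345) lay at a median of 5.09 normalized units at the 15-somite stage and 1.44 at 24 hpf, too low to be tested with the other rows. At the 15-somite stage het 1, het 2 and het 3 held 10, 2 and 2 reads. The values came to 4 reads in hom 2, 8.18 in hom a and 6.96 in hom b, where a value that is not whole keeps the error of the recovered worth of 1 read or a read counted in part. The highest and the lowest libraries were both heterozygous, so the groups overlapped. The difference was 0.68 log2 units (exact permutation test, two-sided, p = 0.4, n = 3 against 3). A limma fit without the level filter gave an SE of 0.74 and an adjusted p of 0.670, and the difference ranged from 0.25 to 1.46 when 1 library was left out.

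At 24 hpf sox17 was at the floor of 1 unit in het 1, hom 2 and hom 3, which allows at most 1 whole read. It held 3 reads in het 2, 2 in het 3 and 8 in hom 1, so 1 homozygous library was the highest. The difference was 0.13 log2 units (exact permutation test, two-sided, p = 1, n = 3 against 3; adjusted p = 0.995 by limma without the level filter), and its sign turned with the library left out, from -0.88 to 0.64. No change in sox17 passed a test at either stage, and its few reads leave its response unknown. sox32, which lies close to sox17 on chromosome 7 in the RefSeq gene order of assembly GRCz12tu, also had very few reads, with medians of 1.38 and 1.40 units and at most 3.21 reads in any library.

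Since sox17 is an endoderm gene in zebrafish, a list of endoderm markers was read beside it. Of 11 tested members, 2 were called lower at the 15-somite stage and 0 higher, where 3.34% and 0.679% of all rows were, with a median difference of -0.18 against 0.00 over all rows. These were fabp2, an intestinal fatty acid binding protein (-1.74, SE 0.27, adjusted p = 0.0241), and hnf4a, a nuclear receptor of liver and gut (-1.19, SE 0.12, adjusted p = 0.0105). The fabp2 call was lost without het 1, het 2, het 3 or hom a. The regulators gata5 and pdx1 had differences of -1.0 and -0.82 that did not pass (adjusted p = 0.0595 and 0.133 by limma). foxa3 and prox1a stood at -0.45 and 0.19. In whole embryos the tissue behind each of these values was not measured, so a fall in endoderm cannot be read from them. Of the 11, 10 lay below 0 and 1 above at the 15-somite stage, and 7 reached an unadjusted p below 0.05 in limma. At that threshold 2199 of all 18861 rows were lower and 1777 higher. At 24 hpf 0 of 11 were called by limma, where 0.279% of all rows were, and the median was 0.08. An unadjusted p below 0.05 in limma was reached by 2 of 11, and by 781 lower and 601 higher of all 19382 rows. The differences farthest from 0 were those of pdx1 (0.46), hnf1ba (0.25), foxa2 (0.20) and fabp2 (0.12).

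The next question was whether the SoxF genes fell in step with each other and with other endothelial genes. Ratios within a library do not depend on how libraries were scaled. Relative to the heterozygous mean, the log2 ratio of sox7 to sox18 at the 15-somite stage was -0.15, 0.53 and -0.38 in het 1, het 2 and het 3. It was -0.71 in hom 2, -1.41 in hom a and -0.51 in hom b. The groups did not overlap, but hom b lay close to het 3. The difference of -0.87 had an exact permutation p of 0.1, the smallest possible here, and 0.2 after adjustment over 6 comparisons of SoxF pairs. At 24 hpf the ratio differed by -0.03 with overlapping groups (exact p = 0.8). The 4 comparisons with sox17 rest on its few reads and had adjusted p of 0.2 at the 15-somite stage and 0.72 at 24 hpf in the exact permutation test.

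The endothelial markers, a list without SoxF genes or etv2, were called lower in 16 of 22 tested members at the 15-somite stage and 16 of 24 at 24 hpf, and in 0 higher, where 3.34% and 0.248% of all rows were called lower. Their median differences were -2.20 and -1.55. By library, relative to the heterozygous mean, the marker median of homozygotes spanned -2.19 to -2.12 in the younger embryos and -1.65 to -1.47 in the older ones, while all heterozygous libraries lay between -0.05 and 0.08. Without het 1 the count at 24 hpf was 8, in a fit that called 9 of all 19382 rows lower. The falls of greatest size at the 15-somite stage were those of gpr182 (-6.37), mrc1a (-5.97), flt1 (-5.24), cdh5 (-4.76), clec14a (-4.73) and tie1 (-4.45), of which mrc1a was lost without het 2, and flt1 and cdh5 without het 2 or het 3. Among those not called there, the 4 farthest from 0 were ecscr (-2.25), esama (-0.83), dab2 (-0.65) and fgd5a (-0.37). Of the 22 tested markers, 20 lay below 0 and 2 above, with the highest at 0.29. At 24 hpf the falls of greatest size were those of the water channel gene aqp8a.1 (-6.39), mrc1a (-3.21), stab2 (-3.11), gpr182 (-3.02), plvapb (-2.93) and tie1 (-2.91), of which mrc1a was lost without het 1 and tie1 without het 1, het 2, het 3 or hom 2. Among those not called at 24 hpf, the 4 farthest from 0 were lyve1b (-4.42, SE 0.91), cdh5 (-1.28), esama (-1.07) and ecscr (-0.54). All 24 tested markers lay below 0, with the highest at -0.02. At the 15-somite stage the fall of sox7 was larger than that of 14 of the 22 markers and the fall of sox18 larger than that of 13. At 24 hpf the sox7 and sox18 differences were larger in size than those of 6 and 5 of the 24 markers. Between the stages, 7 of the 22 markers tested at both moved up and 3 moved down in the interaction test, where 2.47% and 0.862% of all rows did, with a median of 0.59.

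Within each library, sox7 minus the marker median, set relative to the heterozygous mean, was -1.12 log2 units in hom 2, -1.52 in hom a and -0.85 in hom b at the 15-somite stage. The mean difference was -1.16, and no homozygous library reached the heterozygous range of -0.10 to 0.07. At 24 hpf the same ratio was higher in homozygotes, at 0.48, 0.75 and 0.32 in hom 1, hom 2 and hom 3, with a mean difference of 0.52 and again no overlap. With the mean of the markers in place of their median, the sox7 differences were -0.68 and 0.915. For sox18 the ratio differed by -0.29 at the 15-somite stage with overlapping groups (exact permutation p = 0.4), and by 0.19 when the mean of the markers replaced their median. At 24 hpf it was higher in homozygotes by 0.55, without overlap, and by 0.943 with the mean of the markers. sox17 minus the marker median rests on few reads. It was higher in homozygotes by 2.83 at the 15-somite stage without overlap, and by 1.69 at 24 hpf with overlap. The marker median itself was lower in homozygotes, at -2.19 to -2.12 and -1.65 to -1.47. The differences of sox17 alone were 0.68 and 0.13, which did not pass. A row without a change of its own would also give a higher ratio. How many rows separated in this way was not counted. The 4 comparisons without overlap each had an exact permutation p of 0.1, the smallest possible, and 0.15 after adjustment over 6 comparisons. None of the 6 passed. The marker list was chosen with earlier results of these data known, and the ratios depend on that choice. Its median was taken over 22 members at the 15-somite stage and 24 at 24 hpf.

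**Figure D2:**
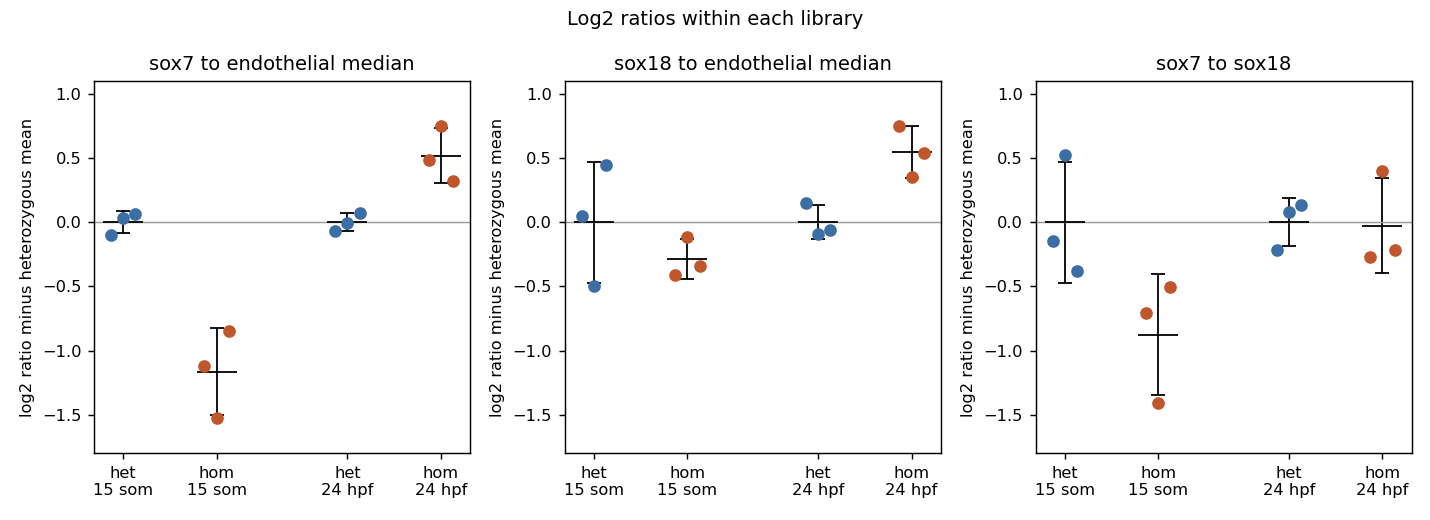
Log2 ratios within each library, minus the heterozygous mean of the stage; each point is 1 library, blue heterozygous and orange homozygous, with group mean and SD. The ratio of sox7 to the endothelial median lies below the heterozygous libraries at the 15-somite stage (mean -1.16) and above them at 24 hpf (0.52); that of sox18 overlaps at the 15-somite stage and lies above at 24 hpf (0.55); that of sox7 to sox18 overlaps at 24 hpf.

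Blood genes were read beside the SoxF values, since the embryos hold blood as well as vessels. Of 14 red blood cell markers, 2 were called lower (cahz and nt5c2l1) and 1 higher (gata1a) at the 15-somite stage, with a median of -0.02, where 3.34% and 0.679% of all rows were called lower and higher. The nt5c2l1 call was lost whichever of the 6 libraries was left out, that of gata1a without each library but hom 2, and that of cahz without het 2 or het 3. At 24 hpf 0 of 14 were called by limma, where 0.279% of all rows were, and the median was 0.44. All 14 lay above 0, and at an unadjusted p below 0.05 in limma there were 11 of 14. At that threshold 781 of all 19382 rows were lower and 601 higher. Of myeloid markers, 2 of 8 tested were called lower at the 15-somite stage and 4 of 11 at 24 hpf, with medians of -0.87 and -1.72, where 3.34% and 0.248% of all rows were called lower. At the 15-somite stage rac2 stayed called whichever library was left out, and cxcr3.2 was lost without het 3, hom 2, hom a or hom b. At 24 hpf lcp1 was lost whichever library was left out, mfap4 and srgn without het 1, het 2, het 3 or hom 3, and lyz without het 1. The part of these shifts in the SoxF values was not tested.

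The regulators placed upstream of SoxF genes in endothelial precursors, chiefly ETS factors and their partners, were counted next. At the 15-somite stage 7 of 11 tested members fell, etv2 itself among them, and 0 rose, with a median difference of -1.10, where 3.34% of all rows were called lower. They included erg, an ETS factor of endothelium (-3.31, SE 0.26, adjusted p = 0.00343), and its relatives fli1b (-1.8, adjusted p = 0.00946) and fli1a (-1.10, adjusted p = 0.00690). tal1, a basic helix-loop-helix factor of blood and vessel precursors, fell by 1.60 on the log2 scale, and its partner lmo2 fell by 1.21. The fli1b call was lost without het 2. elk3 was also called (-0.69, adjusted p = 0.0388 by limma), and was lost without het 2, het 3, hom 2, hom a or hom b. Not called were ets2 (-0.50), gfi1aa (-0.37), gata2a (-0.20) and vegfaa, the VEGF ligand (0.17).

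At 24 hpf 4 of 10 tested members of that list fell and 0 rose, with a median of -0.27, where 0.248% of all rows were called lower. These were etv2, erg (-2.49, SE 0.24, adjusted p = 0.0116), fli1b (-1.54, adjusted p = 0.0214) and lmo2 (-0.63, adjusted p = 0.0326). The lmo2 call was lost when any 1 library was left out. The count was 0 without het 1, 1 without het 2, and 2 without each of het 3, hom 2 and hom 3. In the same order, these fits called 9, 22, 21, 30 and 29 of all 19382 rows lower. fli1a had a difference of -0.39 (adjusted p = 0.190 by limma), vegfaa 0.23, elk3 -0.15 and gata2a -0.08. In the test between stages, 3 of 10 members moved toward 0 as sox7 did, where 2.47% of all rows moved up. tal1 moved by 1.54 (SE 0.12, adjusted p = 0.000667), fli1a by 0.70 (SE 0.12, adjusted p = 0.0161) and lmo2 by 0.57 (SE 0.12, adjusted p = 0.0289). Upward moves were not limited to vascular lists. They were called in 4 of 14 red blood cell markers (median 0.49) and 2 of 11 endoderm markers (median 0.38). Of 7 myeloid markers, 1 moved up and 1 down, and of 20 other Sox genes 0 moved.

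A list of 19 vascular genes linked to SoxF factors in vertebrates, by general knowledge, held members that passed the test and members that did not. Of these, cdh5, kdrl, flt4, cldn5b and robo4 were also endothelial markers, and prox1a was also an endoderm marker. The counts of the lists are therefore not separate. At the 15-somite stage 5 fell and 0 rose, where 3.34% of all rows were called lower, and the median difference was 0.11. The 5 were cdh5, the adhesion protein VE-cadherin (-4.76, SE 0.60, adjusted p = 0.0146), the tight junction gene cldn5b (-3.70, SE 0.35, adjusted p = 0.00820), and the VEGF receptor genes kdr (-2.84), flt4 (-2.07) and kdrl (-1.41). The other 14 did not pass. Farthest from 0 among them was dll4, a Notch ligand, which had a difference of -0.43 (adjusted p = 0.377), and the receptor gene notch1b 0.36 (adjusted p = 0.153) by limma. The muscle and endothelial factor mef2ca stood at 0.31 and the guidance receptor gene robo4 at 0.29. Without het 2 or without het 3 the count was 3, with cdh5 and kdr lost, and kdr was also lost without hom a. The fits without het 2 and without het 3 called 53 and 74 of all 18861 rows lower.

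At 24 hpf 4 of the 19 fell and 0 rose, where 0.248% of all rows were called lower, with a median of -0.07. cldn5b fell by 2.66, kdr by 2.15, flt4 by 1.45 and kdrl by 1.11 on the log2 scale. Without het 1 the count was 2, with kdr and kdrl lost, and kdr was also lost without het 3, hom 2 or hom 3. The fit without het 1 called 9 of all 19382 rows lower. cdh5 had a difference of -1.28 (SE 0.25, adjusted p = 0.226 by limma), dll4 -0.44, hey2, a Notch target of arteries, -0.15, and ephb4a, a receptor gene of veins, -0.10. Between the stages cdh5 moved toward 0 by 3.48 (SE 0.72, adjusted p = 0.0278), the single member of the 19 called in that test, where 2.47% of all rows were called in this direction. Several of the genes that did not pass are also expressed outside vessels, and in whole embryos their endothelial share was not measured.

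**Figure D3:**
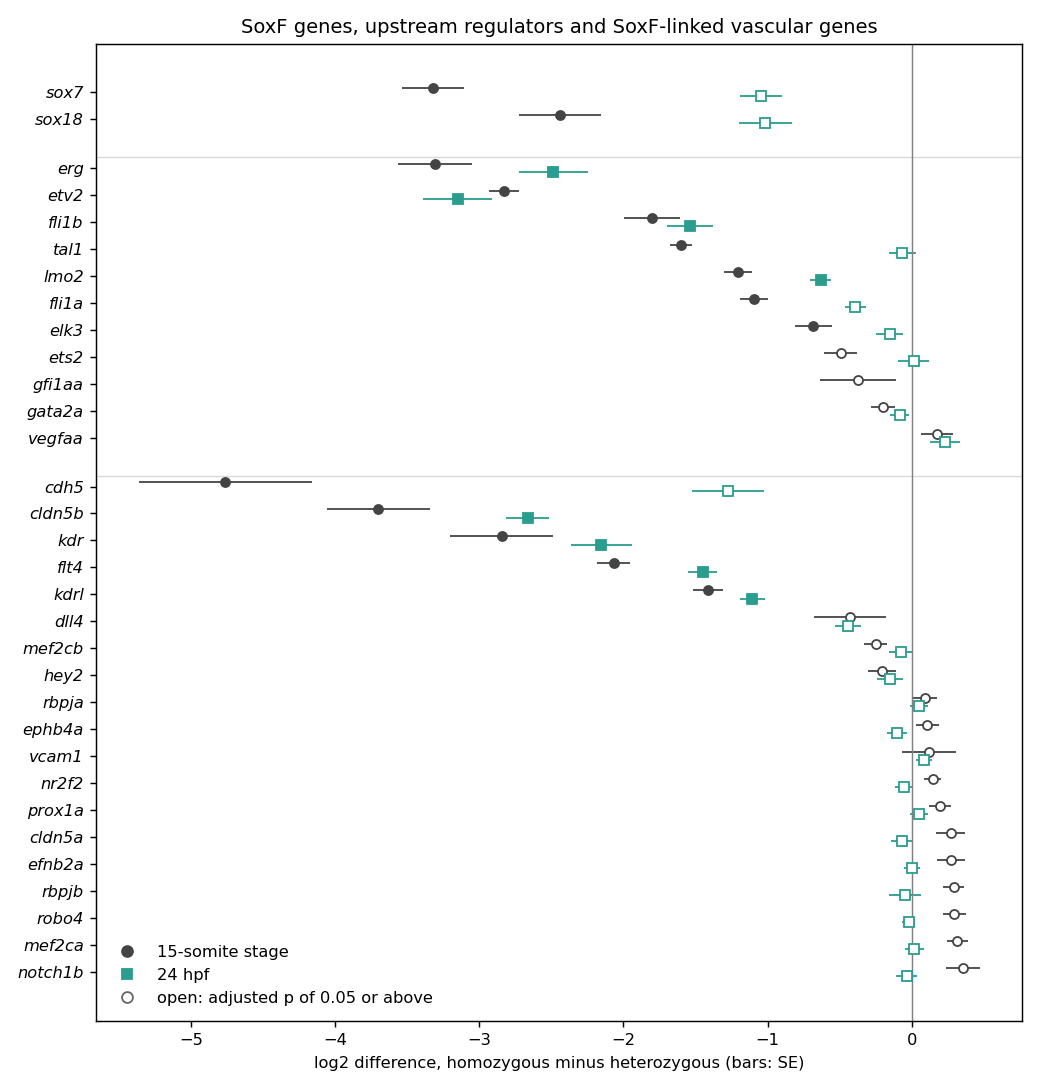
Log2 difference, homozygous minus heterozygous, with SE, for sox7 and sox18 (top), upstream regulators (middle) and SoxF-linked vascular genes (bottom); circles are the 15-somite stage, squares 24 hpf, and open symbols did not pass the test. sox7 and sox18 are filled at the 15-somite stage and open at 24 hpf, and of the 19 linked genes 5 and 4 are filled.

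The other Sox genes were then compared, grouped by the relatedness of their HMG boxes. Of 20 tested rows at the 15-somite stage and 21 at 24 hpf, limma called 0 in either direction, where it called 4.02% and 0.279% of all rows. At an unadjusted p below 0.05 in limma there were 7 and 1. Of all 18861 rows at the 15-somite stage, 2199 were lower and 1777 higher at that threshold. At 24 hpf 781 of all 19382 rows were lower and 601 higher. The differences of the other Sox genes ranged from -0.27 to 1.5 at the 15-somite stage, with a median of 0.10. At 24 hpf they ranged from -0.07 to 0.13, with a median of 0.01. The 9 SoxB genes lay between -0.18 and 0.15 at the 15-somite stage. The 3 SoxD genes lay between 0.22 and 0.34. The farthest from 0 was the SoxC gene sox12 (1.5, SE 0.34, adjusted p = 0.0615 by limma), followed by SOX13 (0.34), sox9a (0.30), a SoxE factor of cartilage and neural crest, and sox4b (-0.27). At 24 hpf sox12 stood at 0.05, and the farthest were sox5 (0.13), SOX13 (0.12), sox10 (0.11) and sox1a (0.08). Not tested were sox32, a second row named sox4a and the row SOX8 (2 of 2) at both stages, and sox8 at the 15-somite stage.

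**Figure D4:**
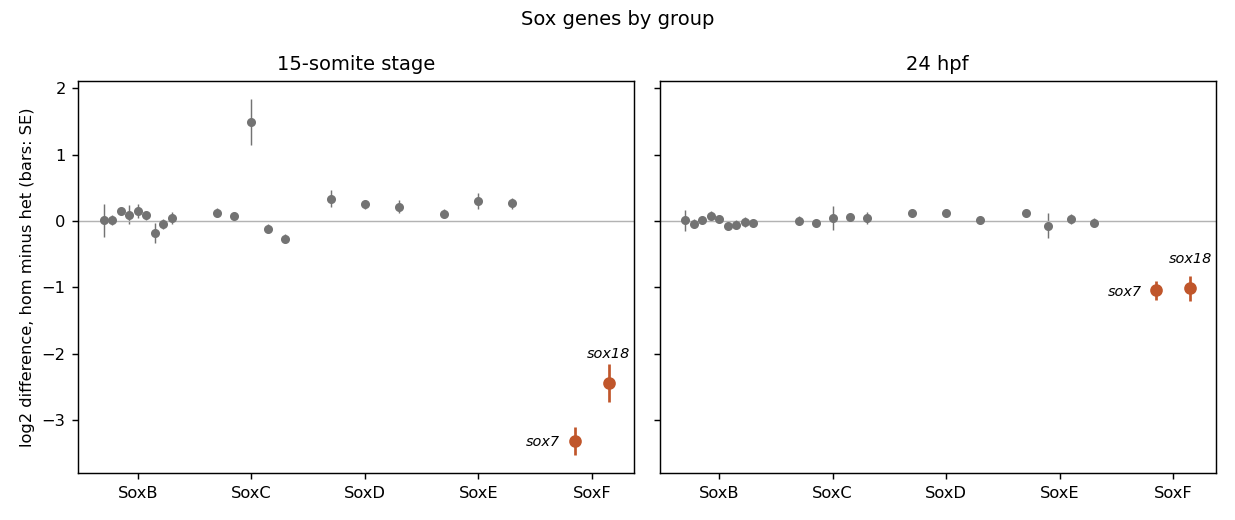
Log2 difference, homozygous minus heterozygous, with SE, for each tested Sox gene by group at the 15-somite stage (left) and 24 hpf (right). sox7 and sox18 (orange) lie at -3.32 and -2.44, then at -1.04 and -1.02; the other Sox genes (grey) span -0.27 to 1.5 and -0.07 to 0.13, and none of those passed the test.

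Genes with the pattern most like that of each SoxF gene were ranked by the mean of the Pearson correlations over the 6 libraries of each stage, among 18106 rows. These correlations describe the libraries and share the genotype contrast. For sox7 they were fli1a (mean r 0.980), flt4 (0.979), the scavenger receptor gene stab2 (0.978), micall2a (0.976) and the scavenger receptor gene scarf1 (0.975). For sox18 they were scarf1 (0.974), the growth factor gene tgfb1b (0.974), flt4 (0.973), the endothelial receptor tyrosine kinase gene tie1 (0.970) and micall2a (0.970). The genes flt4, scarf1 and micall2a were in both sets. sox7 and sox18 had a mean r of 0.931 with each other, which put sox18 at rank 56 for sox7 and sox7 at rank 44 for sox18. etv2 ranked 55 for sox7 (0.931) and 15 for sox18 (0.961). sox17 was not ranked because of its few reads.

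sox7 lies on chromosome 20, sox18 on chromosome 23, sox17 on chromosome 7 and etv2 on chromosome 16 in the RefSeq annotation of assembly GRCz12tu, which differs from the build named for these data and gave only names and gene order. Genes next to the SoxF genes were looked at after their values were known. Beside sox7, pinx1 differed by -0.10 and -0.06 at the 15-somite stage and at 24 hpf, tdh by -0.11 and -0.01, and mtmr9 by 0.07 and -0.16. None of these was called. Near sox18, tcea2 differed by 0.17 and 0.09 and rgs19 by 0.07 and 0.34, and cables2b by 0.22 and -0.38, also not called. oprl1 and xkr7b, tested only at 24 hpf, differed by -0.86 (SE 0.26, adjusted p = 0.508 by limma) and -0.26. A second gene after sox18, ccm2l, differed by -1.27 (SE 0.46, adjusted p = 0.179) and -1.93 (SE 0.45, adjusted p = 0.304), neither of which passed in limma. Beside sox17, plag1 differed by 0.20 and mrpl15 by -0.13 at the 15-somite stage, and by -0.06 and -0.07 at 24 hpf, neither called.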

How the data were processed

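Whole-embryo RNA was sequenced in 12 libraries. The authors deposited 1 table per stage of normalized log2 values; per the submitters' processing notes the genome build was Zv9 and the tool DESeq. For the aligner, counter, annotation release, strand handling and versions, the entry is: not given in the sources used here. From the deposited values, the log2 numbers had been floored at 1 unit and the median of each row over its 6 libraries subtracted. Libraries were made with a NEBNext Ultra kit, per the labels' protocols.

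Binary steps of the stored numbers gave each row a class of median level (below 4, 4 to 16, 16 to 256, 256 and above units), and rows at 16 or above were tested. limma 3.58.1 in R 4.3.3 was fitted per stage on genotype without a replicate block, with the prior spread estimated per class. Single values and ratios were compared by exact permutation tests, two-sided, in scipy 1.17.1. The steps of low values gave the worth of 1 read per library and, with the floor and the binary step, the reads of sox17 and sox32. Between 43.7% and 56.4% of low values were whole reads within 0.001, so no count test was run. The fit was checked on simulated data with known changes and normal noise drawn independently for each row. Changed rows tested were 192 at the 15-somite stage, 194 at 24 hpf and 187 between stages. The fit called 90.1% of falls of 2 log2 units at the 15-somite stage and 67.0% of falls of 1 at 24 hpf. Of the calls, 2.81% and 7.14% were false. Of changes of 1 log2 unit between stages it called 63.1%, with 4.84% of calls false. These shares belong to the simulated setting and need not hold for the deposited data, where 54 rows were called at 24 hpf. In the simulated data the level class was right for 91.4% and 91.7% of varying rows at the 15-somite stage and 24 hpf. Of the simulated rows tested, 3.4% and 3.0% had a median below 16 units. The p-values measure the spread between pools of embryos.

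Named genes were the SoxF genes, etv2 and sox32, then per list and stage up to 6 called members in each direction and the 4 largest differences among the rest, and the 5 genes most alike. Of the red blood cell and myeloid markers, called members were counted and named; neighbours of the SoxF genes were chosen after the values were seen. Members and lists were chosen with earlier results of these data known. Alternatives were another filter, prior spread, scaling or marker summary, all libraries in 1 fit, a replicate block and leaving out each library. Sequences were not used here.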

Additional observations from a re-analysis of the deposited data

Results flagged for a closer look

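The genotype effect on sox7 differed between the stages by the interaction test. The homozygous minus heterozygous difference was -3.32 at the 15-somite stage and -1.04 at 24 hpf, a change of 2.27 log2 units (SE 0.27, adjusted p = 0.00437 by limma). All 3 homozygous libraries lay below all heterozygous ones at each stage, as in 15.5% and 6.51% of all rows. That separation does not bear on the change between stages. The interaction test gave a change of 1.43 for sox18 (SE 0.33, adjusted p = 0.0404 by limma), from -2.44 to -1.02. That call held in 1 of 12 fits that left out 1 library, and was lost without the level filter (adjusted p = 0.0521) and with 1 prior spread (adjusted p = 0.0589). The stages also differed in rearing temperature and were normalized in separate tables, and the part of temperature cannot be told apart from that of stage.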

How the results depend on the processing

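sox7 and sox18 stayed called lower at the 15-somite stage without the level filter, with 1 prior spread, with libraries shifted to a median of 0, after quantile normalization, with all 12 libraries in 1 fit, and without any 1 library (-3.47 to -3.16 and -2.72 to -2.21). At 24 hpf sox7 passed with all 12 libraries in 1 fit (-1.04, adjusted p = 0.0497) and ranged from -1.21 to -0.90 over left-out libraries; sox18 ranged from -1.11 to -0.90 and passed in none. The sox7 change between stages ranged from 2.11 to 2.43; that of sox18 was 1.43 with adjusted p = 0.0521 without the level filter and 0.0589 with 1 prior spread, and ranged from 1.20 to 1.7 over left-out libraries. For sox17, leaving out 1 library gave 0.25 to 1.46 and -0.88 to 0.64. Restricting the test to rows of the highest level class gave no value for sox7 at the 15-somite stage, for sox18 at either stage or for the changes between stages.

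The 758 calls at the 15-somite stage (83.1% lower) became 236 with 1 prior spread, 1946 with all 12 libraries in 1 fit (62.4% lower), 1026 after quantile normalization (72.4% lower), and 63 to 416 without 1 library (63 without het 2). The 54 calls at 24 hpf became 10 to 35 without 1 library (10 without het 1). With the replicate block they became 21, and the adjusted p of sox7 was 0.227 and of sox18 0.248. Same-numbered libraries at 24 hpf had correlations of deviations of 0.0970, 0.0118 and -0.00650, and not every library correlated best with its own number, so the numbers were not taken to pair them. No paired analysis was possible at the 15-somite stage or between stages because 2 homozygous columns carry no number of their own.

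With the mean of the endothelial markers in place of the median, the ratios became -0.68 and 0.915 for sox7 and 0.19 and 0.943 for sox18 at the 15-somite stage and 24 hpf. Without 1 library they ranged from -1.32 to -0.98 and 0.40 to 0.62 for sox7, and from -0.54 to -0.07 and 0.44 to 0.65 for sox18; the ratio of sox7 to sox18 ranged from -1.06 to -0.61 and -0.24 to 0.09. With 1 prior spread 197 of all 18861 rows were called lower at the 15-somite stage. The members called lower were 1 of 11 endoderm markers, 1 of 14 red blood cell markers and 2 of 8 myeloid markers. They also held 5 of 19 SoxF-linked genes, 6 of 11 upstream regulators and 16 of 22 endothelial markers. At 24 hpf 37 of all 19382 rows were called lower in that fit. The members called lower there were 4 of 19 SoxF-linked genes, 2 of 10 upstream regulators, 17 of 24 endothelial markers and 1 of 11 myeloid markers. In an alternative added after seeing the data, leaving out 1 library, they were 3 to 5 and 2 to 5 SoxF-linked genes, 5 to 7 and 0 to 3 upstream regulators, and 12 to 16 and 8 to 17 endothelial markers at the 15-somite stage and 24 hpf. In those fits 53 to 353 of all 18861 rows were called lower at the 15-somite stage, and 9 to 35 of all 19382 at 24 hpf. The cause of these shifts was not tested.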
